A study of Bubalus bubalis with 12 samples.

Results

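The expression of 10 cornified envelope genes was analysed in the ruminal wall of Italian Mediterranean dairy buffaloes. The genes were TGM1, TGM3, IVL, CNFN, EVPL, PPL, CDSN, SCEL and KRTDAP, together with C2H6orf15, which was taken in as the neighbour of CDSN. They were matched by symbol among the 34037 genes of the deposited table, and each of the 10 symbols was found. The comparison asks whether the inclusion of green forage in the ration of buffaloes goes with a different expression of genes in the ruminal wall. The control group of 6 animals received a total mixed ration (TMR), while in the treated group, also of 6 animals, green ryegrass made up about 30% of the ration beside TMR. All animals were lactating buffaloes of 1 dairy farm, and each gave 1 library of total RNA from frozen rumen wall. Values are FPKM, fragments per kilobase of gene length and per fixed number of counted fragments, so that levels can be compared between genes.

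The cornified envelope is the layer of cross-linked protein that replaces the plasma membrane of keratinocytes in the outermost layer of a stratified squamous epithelium. Envoplakin and periplakin first line the inner face of the membrane with involucrin, transglutaminases then join these and further precursor proteins by bonds that proteases do not cut, and ceramides are attached to the outer face. In the rumen, the papillae carry such a keratinised epithelium, which meets the feed and takes up short-chain fatty acids through living layers below the cornified one. Corneodesmosin holds the cornified cells to each other until proteases release them.

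Between 10531541 and 12948372 reads were counted on genes in each animal. Epithelial RNA was abundant, with 1493 FPKM of the basal keratin KRT5 on average. The summed FPKM of 9 basal epithelium markers ranged from 1317 to 3159 in controls and from 1471 to 4027 in treated animals. The 10 smooth muscle markers summed to only 29.7 to 51.6 FPKM in controls and 16.9 to 42.3 in treated animals, although the tissue was labelled rumen wall, and MYH11, the myosin of smooth muscle, averaged 2.01 FPKM. No smooth muscle marker was at 0 in all animals. For 10 fibroblast markers the ranges were 49.7 to 300.2 and 21.8 to 194 FPKM, for 8 endothelial markers 11.4 to 39.6 and 8.07 to 40.7, for 9 immune markers 38.9 to 67.4 and 31.3 to 60.1, and for 6 markers of enteric glia 5.48 to 16.5 and 2.73 to 8.52, in the control and the treated group. Of the listed markers, the B cell gene CD79B and the glial gene SOX10 were at 0 in every animal. Control replicate 6 and treated replicate 6 stood apart from the others, since they held the lowest values of all 12 animals in 19.3% of the 12742 genes tested and in 5 of 9 basal epithelium markers. No library repeated another, since the chi-square per gene was at least 15.9 in all 66 pairs.

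The 10 genes covered more than 3 orders of magnitude in expression. TGM3 was the highest with a mean of 569 FPKM, which placed it at rank 142 of the 22972 genes above 0. IVL followed at rank 184 with 419.9 FPKM, TGM1 at rank 535 with 112 FPKM, PPL at rank 1525 with 39.0 FPKM and EVPL at rank 1967 with 30.6 FPKM. These 5 genes make the enzymes and the first scaffold of the envelope. CNFN was at rank 8324 with 4.52 FPKM, and C2H6orf15, SCEL, CDSN and KRTDAP had means of 1.53, 1.51, 0.536 and 0.347 FPKM. Neighbours in this order were compared within animals by a two-sided exact sign-flip permutation test on log2(FPKM + 0.01), adjusted over 9 comparisons. The order itself came from the means of the same animals, so the tests set each step against the spread between animals only. It also depends on the gene lengths behind the FPKM, which are not given in the sources used here. IVL was above TGM1, TGM1 above PPL and EVPL above CNFN in 12 of 12 animals, each with an adjusted p of 0.00146 by this exact test, whose smallest possible p is 0.000488 before adjustment. PPL was above EVPL in 11 of 12 animals (adjusted p = 0.00176, exact permutation test), as was SCEL above CDSN, and CNFN was above C2H6orf15 in 10 of 12 (adjusted p = 0.00293, exact permutation test). TGM3 and IVL did not differ beyond their spread, with TGM3 higher in 7 of 12 animals (adjusted p = 0.264, exact permutation test). The same held for C2H6orf15 and SCEL (6 of 12 animals) and for CDSN and KRTDAP (5 of 12 animals).

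**Figure D1:**
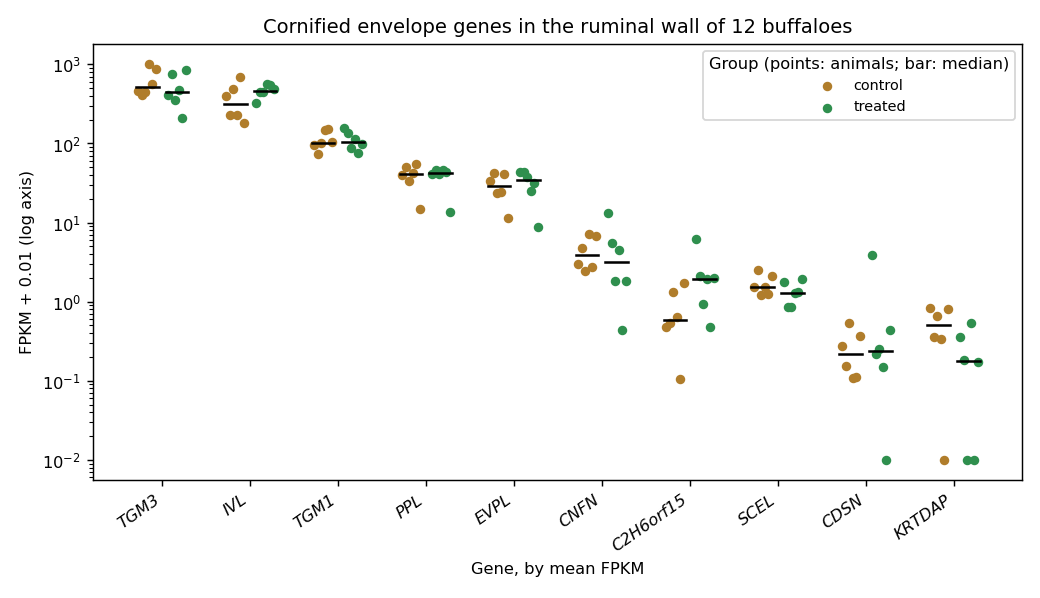
FPKM + 0.01 on a log axis for each of the 10 genes, with 1 point per animal, the control group on the left and the treated group on the right of each gene, and a bar at the group median. TGM3, IVL and TGM1 lie at the top, and the groups overlap in every gene.

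Together, the 10 genes took between 0.234% and 0.409% of the counted reads of an animal, the median being 0.304% for control animals and 0.302% for treated animals. TGM3, IVL and TGM1 held 87.6% to 98.0% of the summed FPKM of the 10 genes. The sum was 1188 ± 270 FPKM (SD, n = 6) under the control diet and 1170 ± 242 (SD, n = 6) with green feed, and the difference was within the spread between animals (p = 0.918, two-sided exact permutation test). These 3 genes held most of the summed level in every animal of both diets.

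Between the diets, 1 of the 9 genes that had enough reads to be tested passed the nominal threshold of limma (p below 0.05), and this was C2H6orf15, which was higher in the treated group. Over all 12742 genes tested, 1.27% passed in either direction, with 0.801% higher and 0.471% lower in the treated group. The count of 1 gene rests on a neighbour of an envelope gene, since none of the 8 tested genes with a described role in cornification passed. The study lists C2H6orf15 among its top up-regulated genes in these same animals, so its nominal pass here is no separate evidence. After Benjamini-Hochberg adjustment, 0 of the 9 and 0 of all genes passed in limma, where 162 genes had a nominal p below 0.05 and the smallest adjusted p was 0.9996. By voom on the reads, 149 genes passed the nominal threshold and 0 the adjusted one. The log2 fold change, treated minus control, was above 0 in 4 of the 9 genes, against 51.2% of all genes, and its median was -0.01, against 0.0050 over all genes. The groups overlapped in each of the 9 genes, while they did not in 0.0549% of all genes tested.

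**Figure D2:**
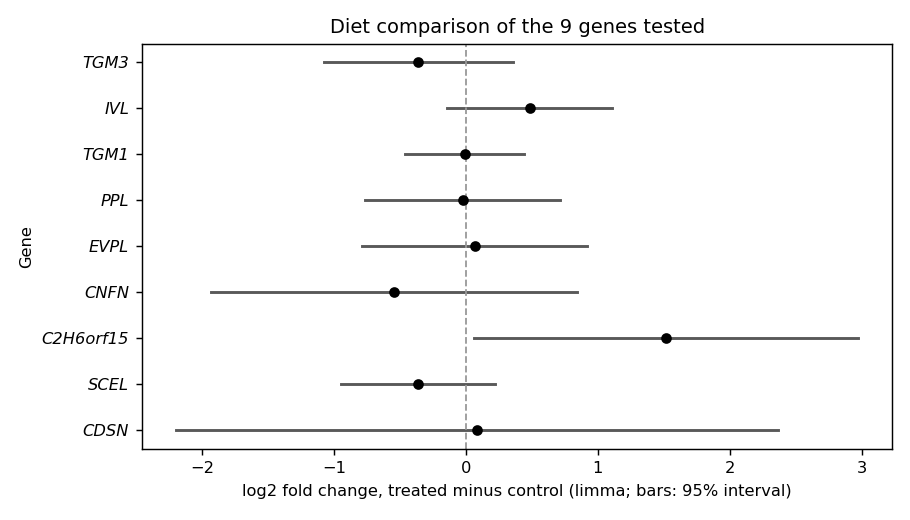
Log2 fold change, treated minus control, from limma on log2(FPKM + 0.01) with 6 animals a group, as a point with its 95% interval for each of the 9 genes tested. The interval of C2H6orf15 (0.07 to 2.98) lies above 0, and the other 8 intervals include 0, narrowest in TGM1 and widest in CDSN.

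TGM1 (gene 102410627) encodes the membrane-bound transglutaminase that cross-links involucrin and attaches ceramides to it. It had 74.1, 102 and 152 FPKM as lowest, median and highest value in controls and 75, 106 and 158 FPKM in treated animals. Both groups covered nearly the same range, from 2920 to 6264 reads. The log2 fold change was -0.01 (standard error, SE, 0.21) and its 95% interval ran from -0.46 to 0.44, which leaves room for a change of up to that size in either direction (p = 0.974, exact permutation test).

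TGM3 (gene 102413274) encodes the transglutaminase of the cytosol that is activated by proteolysis and joins small precursor proteins before they reach the membrane. In the control group it had 405, 511 and 1017 FPKM as lowest, median and highest value, and in the treated group 211, 444 and 853 FPKM. The lowest values were those of treated replicates 5 and 3, both below all controls, and the highest was control replicate 4. The difference of -0.36 (SE 0.33, 95% interval from -1.07 to 0.35) was smaller than the spread between animals (p = 0.368, exact permutation test). Leaving out 1 animal gave values from -0.54 (without treated replicate 6) to -0.14 (without treated replicate 5), with -0.20 without control replicate 4. As covariates, the basal epithelium score gave -0.18 and the smooth muscle and fibroblast score gave -0.41. The ratio of TGM3 to TGM1 within an animal ranged from 2.59 to 8.63, and was 5.63 ± 1.76 (SD, n = 6) in the control and 4.62 ± 2.22 (SD, n = 6) in the treated group (adjusted p = 0.387 over 4 ratios, exact permutation test).

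Of the other transglutaminases, TGM5, which also cross-links envelope proteins in the upper epidermis, lay between IVL and TGM1 in level, with 263 ± 67.5 FPKM (SD, n = 6) under the control diet and 254 ± 76.2 (SD, n = 6) with green feed. TGM2, the widely expressed tissue transglutaminase, was low, with 1.23, 2.18 and 2.52 FPKM as lowest, median and highest value in controls and 0.623, 1.21 and 1.95 FPKM in treated animals. Its log2 fold change was -0.83 (SE 0.28, nominal limma p = 0.0102, adjusted p = 0.9996, exact permutation p = 0.0173). The groups overlapped, with 3 treated animals below all controls and 4 controls above all treated animals. Among the markers of other cell types, 1 of 8 tested smooth muscle genes (DES, named after its values were seen) and 0 of 10 fibroblast genes passed as lower in the treated group, against 0.471% of all genes tested, both lists with a median log2 fold change below 0 (-0.70 and -0.66), and their part in the lower TGM2 was not tested. The values of TGM7 averaged 2.69 FPKM, with a log2 fold change of -0.32 (SE 0.30), and TGM6, named after its values were seen, had 21 reads in all 12 animals.

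IVL (gene 102399303) encodes involucrin, the early scaffold of the envelope and a substrate of TGM1. The control animals had 183, 314 and 698 FPKM as lowest, median and highest value, and the treated animals 326, 465 and 565 FPKM. Of the 6 controls, 3 lay below all treated animals and 1, replicate 5, above them, and the SD was 198 FPKM in the control and 86.1 FPKM in the treated group, a difference in spread that was not tested. The log2 fold change was 0.49 (SE 0.29, 95% interval from -0.14 to 1.11) and did not pass (limma p = 0.118, exact permutation p = 0.162). Without control replicate 5 it was 0.70 (SE 0.25) and passed the nominal threshold of limma, and without both animals numbered 6 it was 0.30 (SE 0.29) and did not. The ratio of IVL to TGM3 ranged from 0.207 in control replicate 6 to 2.59 in treated replicate 5, and averaged 0.70 in controls and 1.17 in treated animals (adjusted p = 0.387 over 4 ratios, exact permutation test).

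EVPL (gene 102405438) and PPL (gene 102416319) encode envoplakin and periplakin, plakin proteins that pair with each other and link the envelope to desmosomes and keratin filaments. EVPL had 11.3, 29.1 and 42.5 FPKM as lowest, median and highest value in controls and 8.88, 34.8 and 43.5 FPKM in treated animals. PPL had 14.9, 41.1 and 55.4 FPKM in controls and 13.6, 42.1 and 46.7 FPKM in treated animals. In both genes the lowest value of each group was that of replicate 6, and the other 10 animals lay at 23.4 FPKM or above. The log2 fold changes were 0.07 for EVPL (SE 0.40, 95% interval from -0.79 to 0.92) and -0.02 for PPL (SE 0.34, 95% interval from -0.76 to 0.71), neither beyond the spread between animals (p = 0.861 and p = 0.911, exact permutation tests). Without both animals numbered 6 they were 0.15 (SE 0.20) and -0.0026 (SE 0.12).

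EVPL and PPL also varied together across the animals. On log2(FPKM + 0.01), Pearson's r was 0.927 over 12 animals (p = 0.00086, adjusted p = 0.0387 over the 45 pairs of the 10 genes, permutation test), the only pair with an adjusted p below 0.05. Spearman's rho was 0.601 (p = 0.0419, adjusted p = 0.394, permutation test). Without the 2 animals farthest from the median of EVPL, which were treated and control replicate 6, r was 0.501, so that the relation rests on these animals. Within the control group r was 0.957 (p = 0.00833, exact permutation test, n = 6), and within the treated group 0.914 (p = 0.144, exact permutation test, n = 6), each with its replicate 6 included. In the same animals the summed FPKM of the basal epithelium markers were the lowest of each group, 1317 in control replicate 6 and 1471 in treated replicate 6, against group medians of 2783 and 3005. With the basal epithelium score as a covariate, the log2 fold change of EVPL was -0.23 (SE 0.18) and that of PPL was -0.27 (SE 0.19), and with the smooth muscle and fibroblast score they were -0.34 (SE 0.37) and -0.25 (SE 0.36). In libraries of whole tissue, fewer cells of a type and less RNA per cell cannot be told apart. The ratio of PPL to EVPL ranged from 0.939 to 1.84, with means of 1.36 ± 0.204 (SD, n = 6) and 1.30 ± 0.342 (SD, n = 6) in the control and treated group (adjusted p = 0.608, exact permutation test).

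**Figure D3:**
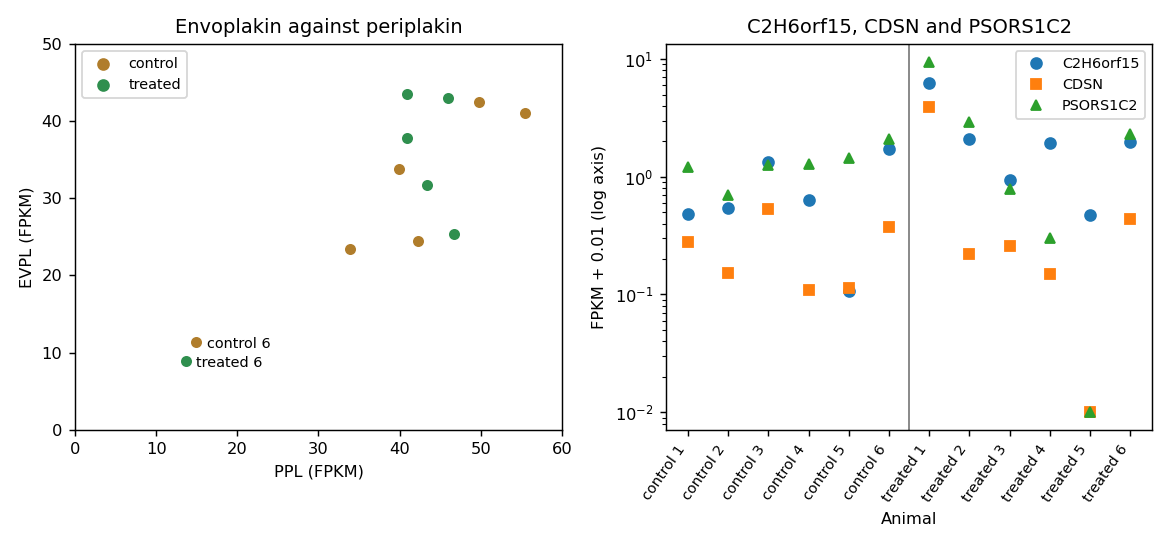
Left, FPKM of EVPL against FPKM of PPL with 1 point per animal, where both animals numbered 6 lie apart at 13.6 and 14.9 FPKM of PPL. Right, FPKM + 0.01 on a log axis of C2H6orf15, CDSN and PSORS1C2 in each animal, where treated replicate 1 is the highest in all 3 genes and treated replicate 5 is at 0 in CDSN and PSORS1C2.

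CNFN (gene 102390666) encodes cornifelin, a small protein built into the envelope. Its reads were few, from 4 to 124 per animal. The control group had 2.47, 3.89 and 7.24 FPKM as lowest, median and highest value, and the treated group 0.431, 3.18 and 13.2 FPKM. The treated animals enclosed the whole range of the controls, with replicate 1 above all of them and replicates 3, 5 and 6 below. The group means were 4.48 ± 2.10 (SD, n = 6) and 4.56 ± 4.66 (SD, n = 6), while the log2 fold change was -0.54 (SE 0.65, 95% interval from -1.93 to 0.84, exact permutation p = 0.513), so that mean and log mean differ in sign. With 1 animal left out it ranged from -0.99 without treated replicate 1 to -0.01 without treated replicate 5.

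SCEL (gene 102412138) encodes sciellin, a precursor that is cross-linked to the envelope in stratified epithelia. It had 1.20, 1.53 and 2.53 FPKM as lowest, median and highest value in controls and 0.839, 1.29 and 1.93 FPKM in treated animals. Treated replicates 2 and 3 lay below all controls, control replicates 2 and 6 above all treated animals, and the others overlapped. The log2 fold change was -0.36 (SE 0.27, 95% interval from -0.94 to 0.22, exact permutation p = 0.206). SCEL and CNFN had an r of 0.270 across the 12 animals (adjusted p = 0.622, permutation test) and a rho of 0.315 (adjusted p = 0.716, permutation test), and r was 0.267 without treated replicates 1 and 5. The lowest Pearson correlation of the 45 pairs was that of IVL and SCEL, with an r of -0.62 (adjusted p = 0.239, permutation test) and a rho of -0.58 (adjusted p = 0.398, permutation test), and r was -0.58 without control replicates 4 and 6. By rank, PPL and CDSN had the lowest value, with a rho of -0.73 (adjusted p = 0.340, permutation test) and an r of -0.29 (adjusted p = 0.562, permutation test).

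KRTDAP (gene 102390696) encodes a secreted protein made by keratinocytes as they differentiate. It had 24 reads in all 12 animals and at most 5 in one, which was too few for the test. Its values were 0, 0.499 and 0.832 FPKM as lowest, median and highest in controls and 0, 0.169 and 0.520 FPKM in treated animals. Control replicate 5 and treated replicates 3 and 5 had no read, which allows up to 0.512, 0.522 and 0.529 FPKM, and 9 animals had 3 reads or fewer. A difference between the diets was not detectable at this depth (p = 0.214, exact permutation test). KRTDAP and CDSN had an r of 0.514 (adjusted p = 0.329, permutation test) and a rho of 0.437 (adjusted p = 0.643, permutation test), and r was 0.310 without treated replicates 1 and 5.

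CDSN (gene 102397279) encodes corneodesmosin, the glycoprotein of the junctions between cornified cells. It had 184 reads in all, of which 111, or 60.3%, were those of treated replicate 1. The control group had 0.0997, 0.205 and 0.521 FPKM as lowest, median and highest value, and the treated group 0, 0.228 and 3.92 FPKM. Treated replicate 1 was far above the other 11 animals, the next of the treated group being replicate 6 with 0.431 FPKM, and treated replicate 5 had no read, which allows up to 0.107 FPKM. The group means of 0.249 ± 0.169 (SD, n = 6) and 0.824 ± 1.52 (SD, n = 6) differed more than the medians, and treated replicate 1 held 78.7% of the reads of its group. The log2 fold change was 0.08 (SE 1.06, 95% interval from -2.20 to 2.36, exact permutation p = 0.935), and it ranged from -0.74 without treated replicate 1 (SE 0.88) to 0.99 without treated replicate 5 (SE 0.78). It was 0.40 and 0.29 with pseudocounts of 0.1 and 1 FPKM.

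C2H6orf15 (gene 102397609), the buffalo counterpart of human C6orf15, has no established role in the envelope. In the gene order of the NDDB_SH_1 assembly it is the protein-coding gene next to CDSN on chromosome 2. It had 0.0967, 0.577 and 1.73 FPKM as lowest, median and highest value in controls and 0.467, 1.94 and 6.28 FPKM in treated animals, from 3 to 190 reads per animal. Treated replicates 1, 2, 4 and 6 lay above all controls, treated replicates 3 and 5 within their range, and control replicate 5 below all treated animals. The means were 0.794 ± 0.604 (SD, n = 6) and 2.28 ± 2.07 (SD, n = 6), and the log2 fold change was 1.52 (SE 0.68). Its nominal limma p was 0.0418 (adjusted p = 0.9996), and the exact permutation test of the same difference gave p = 0.0758, so the 2 tests lie on different sides of the threshold.

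The call of C2H6orf15 was not stable to the choice of animals. It was lost without any 1 of control replicates 1, 2, 4 and 5 and treated replicates 1, 2, 4 and 6, with log2 fold changes from 1.03 to 1.54. Without treated replicate 1, the animal with 33.9% of its reads, the log2 fold change was 1.14 (SE 0.65). With 1 animal left out it was lowest without control replicate 5, at 1.03 (SE 0.58). That control had 3 reads of C2H6orf15, which is at the floor. Without both animals numbered 6 it was 1.79 (SE 0.74) and still passed. When the smooth muscle and fibroblast markers entered as a covariate, it was 1.4 (SE 0.77) and did not pass. With a pseudocount of 1 FPKM the log2 fold change was 0.74 (SE 0.33) and passed. The direction was the same in each of these fits. Treated replicate 1 also had the lowest summed FPKM of the fibroblast and endothelial markers, 21.8 and 8.07, and the part of this in its high values was not tested.

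CDSN and C2H6orf15 had an r of 0.650 over the 12 animals (p = 0.0279, adjusted p = 0.239, permutation test) and a rho of 0.622 (adjusted p = 0.394, permutation test). Without treated replicates 1 and 5, r was 0.564, and within the groups it was 0.728 (control, p = 0.0917, exact permutation test, n = 6) and 0.917 (treated, p = 0.0403, exact permutation test, n = 6). C2H6orf15 had more reads than CDSN in 11 of 12 animals and as many in the remaining one, control replicate 5. Of the further neighbours, PSORS1C2 beyond CDSN had 0.683, 1.27 and 2.10 FPKM as lowest, median and highest value in controls and 0, 1.53 and 9.53 FPKM in treated animals, with the highest value again in treated replicate 1. The log2 fold change of PSORS1C2 was -0.80 (SE 1.23), not past the threshold and opposite in sign to the difference of the medians. CCHCR1, the next gene, ranged only from 2.01 to 5.76 FPKM (log2 fold change 0.16, SE 0.25). On the side of C2H6orf15, the pseudogene LOC102413447 was listed at 0 in all animals, and LOC102398125 had 1.31 ± 0.825 FPKM (SD, n = 6) in the control and 0.478 ± 0.559 (SD, n = 6) in the treated group (log2 fold change -2.34, SE 1.13, not past the threshold). LOC123332274 and LOC123328044 were not analysed here. The high values of treated replicate 1 were thus shared by C2H6orf15, CDSN and PSORS1C2 and not by CCHCR1 and LOC102398125, which had 4.43 and 0.0477 FPKM there. This animal was also the highest in CNFN, EVPL and TGM1, which lie on other chromosomes, and in 12.8% of all genes tested.

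**Figure D4:**
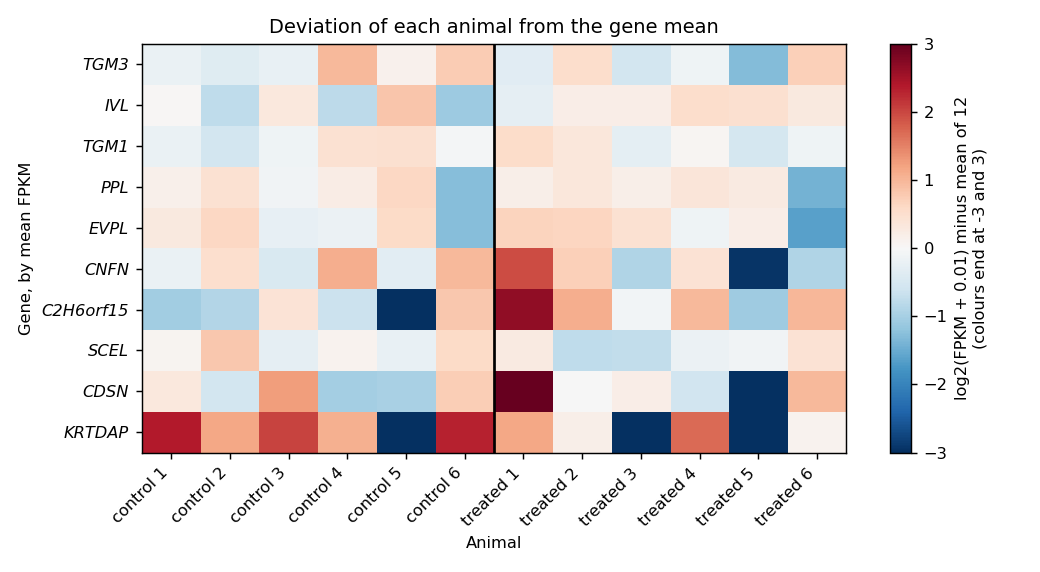
Deviation of log2(FPKM + 0.01) of each animal from the mean of 12 animals, with the 10 genes in rows by mean FPKM, the animals in columns and a line between the groups; colours end at -3 and 3. CNFN, C2H6orf15 and CDSN are highest in treated replicate 1, CNFN and CDSN lowest in treated replicate 5, and EVPL and PPL lowest in both animals numbered 6.

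Across the animals, 28 of the 45 pairs of the 10 genes had a positive r. TGM1 and TGM3 had an r of 0.535 (adjusted p = 0.323, permutation test) and a rho of 0.545 (adjusted p = 0.453, permutation test), and r was 0.772 without treated replicate 1 and control replicate 5. TGM1 and its substrate IVL had an r of 0.033 (adjusted p = 0.939, permutation test), and r was -0.14 without the same animals; the adjusted p of rho was 1. Treated replicate 1 was the highest of the 12 animals in 5 of the 9 genes tested (CNFN, CDSN, C2H6orf15, EVPL and TGM1), against 12.8% of all genes tested. The genes most like the mean profile of the 9 tested genes over the 12 animals, by Pearson's r of the mean z score, were EHD1 (0.904), LOC102393427 (0.892), CUNH1orf116 (0.867), MSN (0.867) and SPINT1 (0.864). The closest to CDSN were PGK1 (0.926), NR1D1 (0.891) and PSORS1C2 (0.879), and to C2H6orf15 HHEX (0.881), LOC102395010 (0.873) and ARFGEF3 (0.866). These likenesses are the highest of all genes tested and carry no test.

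The remaining genes of cornification were read from lists of transglutaminases, envelope precursors, proteases with their inhibitors, and enzymes of the lipid envelope. Of 95 symbols besides the 10 genes, 63 were matched by symbol and 40 had enough reads to be tested. Of these 40, 1 was higher and 1 lower in the treated group at a nominal limma p below 0.05, 0 passed after adjustment, and the median log2 fold change was -0.07. Over all genes tested, 0.801% were higher and 0.471% lower at the same threshold. The lower one was TGM2. The higher one was TCHH, trichohyalin, a cross-linked protein of hair follicle and filiform papilla, with 5.74 ± 3.45 FPKM (SD, n = 6) in the control and 8.93 ± 2.10 (SD, n = 6) in the treated group, a log2 fold change of 0.80 (SE 0.33). Its nominal limma p was 0.0286 (adjusted p = 0.9996), against p = 0.0606 by the exact permutation test. The groups overlapped, since control replicate 5 had the highest value, 12.01 FPKM.

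Among the 14 other envelope precursors matched, 7 were tested. The strongest were A2ML1, a protease inhibitor of the upper epidermis, with 1508 ± 593 FPKM (SD, n = 6) in the control and 1315 ± 465 (SD, n = 6) in the treated group, and ANXA1, an annexin found in envelopes, with 1222 ± 383 and 1182 ± 568 (SD, n = 6 each). Both exceeded TGM3 in mean level and neither passed the test (log2 fold changes -0.19, SE 0.28, and -0.10, SE 0.27). POF1B, an actin-binding protein of epithelia, had a mean of 50.4 FPKM, between TGM1 and PPL. LOR, loricrin, the main envelope protein of the epidermis, is named here after its values were seen, since it had only 12 reads in all 12 animals.

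None of the 12 proteases and inhibitors tested passed. The highest were SPINK5, an inhibitor of the kallikreins that shed cornified cells, with 196 ± 70.1 FPKM (SD, n = 6) in the control and 202 ± 46.4 (SD, n = 6) in the treated group, and the membrane serine proteases TMPRSS11D (mean 115 FPKM) and TMPRSS11A (mean 51.6 FPKM). KLK5, KLK6 and KLK7, named after their values were seen, were listed at 0 reads in all 12 animals, as was CASP14. None of the 18 tested genes of the lipid envelope passed either. Their highest were ELOVL1, which elongates very long fatty acids, with 23.3 FPKM, UGCG, which makes glucosylceramide, with 19.0 FPKM, and DEGS2, which makes phytoceramide, with 14.7 FPKM on average.

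**Figure D5:**
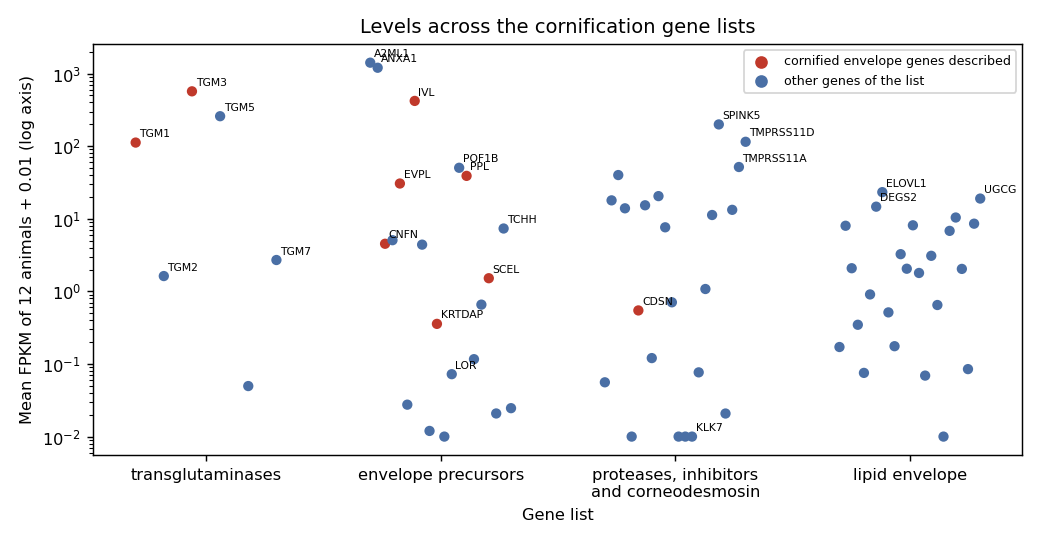
Mean FPKM of 12 animals + 0.01 on a log axis for the genes of the 4 cornification lists that were matched by symbol, with the cornified envelope genes described here except C2H6orf15 in red and the other genes of each list in blue. A2ML1 (1412 FPKM) and ANXA1 (1202 FPKM) are the highest, TGM3, IVL and TGM5 follow at 569, 419.9 and 259 FPKM, and KLK7 is at 0.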

How the data were processed

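RNA-seq libraries of 12 animals (6 control, 6 treated, as the sample labels give them) were analysed. Replicates are numbered as in the sample descriptions. The animal numbers in the sample titles and column headers differ from these for control replicate 6 and for all treated animals. According to the sources, reads were checked with FastQC 0.11.5, trimmed with Trimmomatic 0.39, aligned with STAR 2.5.2b to UOA_WB_1 and counted by strand with featureCounts 2.0.0. The authors deposited FPKM; the gene lengths behind them are not given in the sources used here, and differential expression in the study was tested with edgeR. The table has 16 columns, of which 4 match no sample and were not used. Whole reads were worked out from the steps of the FPKM for all 22972 genes above 0 (tolerance 1e-06), and with them the counted reads per animal, which set the precision.

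Genes with at least 40 reads at a common depth in at least 1 animal were tested with limma 3.58.1 in R 4.3.3 (eBayes with trend) on log2(FPKM + 0.01), treated minus control, called at a nominal p below 0.05 with Benjamini-Hochberg adjustment beside it. The pseudocount lies below the 0.0326 FPKM of 1 read at the median gene length. A value of 0 can therefore weigh heavily in the log2 fold change of a low gene. Exact permutation tests, two-sided, ran over 924 assignments of the animals (smallest p 0.00216), and correlations used 100000 resamples, with Python 3.11.15 and scipy 1.17.1. Scripts were tested on simulated data. Floors are 3 reads and cover counting error only.

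The genes, lists and tests were chosen with earlier results of these data known. Besides the 10 genes, the text names the 3 highest genes of each cornification list and those with a nominal p below 0.05, neighbours of CDSN and C2H6orf15 (order from the NDDB_SH_1 gene table), and the genes with the most similar profiles. Markers of other cell types (KRT5, MYH11, DES, CD79B, SOX10) and the genes marked as such in the text fall outside this rule and were named after their values were seen. KRT14, CD163 and many SPRR, LCE and filaggrin-type genes were not matched by symbol and not analysed here. No sequence was used here. Alternatives were pseudocounts, filters, scalings, voom, marker scores as covariates, the replicate block, each animal left out, and, chosen after seeing the data, both animals numbered 6 left out.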

Additional observations from a re-analysis of the deposited data

Results flagged for a closer look

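Each of the 10 genes was examined on FPKM in both groups for an animal far from the others (20 groups of 6 animals). Chance flags about 1 in 20 such groups if values are normally distributed, which was not tested. The same animals also recur in many of the groups, so the number of flags is not compared with that rate. There were 3 such values. PPL was 13.6 FPKM in treated replicate 6, while the nearest treated animal had 40.9 FPKM. CDSN was 3.92 FPKM in treated replicate 1, with 0.431 FPKM in the next animal of the group. C2H6orf15 was 6.28 FPKM in treated replicate 1, with 2.10 FPKM in the next animal.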

How the results depend on the processing

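The number of genes passing at a nominal p below 0.05 was 162, and it was 562 over all genes above 0, 301 over those of 0.1 FPKM or more in 6 or more animals, 347 with the smooth muscle and fibroblast score and 443 with the basal epithelium score as a covariate, 317 without both animals numbered 6, and from 145 to 331 with 1 animal left out, the highest without treated replicate 6; the causes were not tested, and both changes of the filter also covered more genes, 22972 and 16450. With the replicate block it was 325. Same-numbered animals correlated in their deviations from -0.01 to 0.41, with a mean of 0.21, against a mean of -0.04 for animals of different numbers. The labels describe no pairs, and the numbers were not taken as pairs, although 8 of 12 animals correlated best with their own number. These numbers are those of the sample descriptions, and the animals joined by them carry different numbers in the sample titles. C2H6orf15 was called with the block too. Of the 9 genes tested, 1 (C2H6orf15) was called, against 0 with the smooth muscle and fibroblast covariate and from 0 to 1 with 1 animal left out. Log2 fold changes near 0 turned in sign: EVPL to -0.34 with the smooth muscle and fibroblast covariate and -0.23 with the basal covariate, CDSN to -0.56 with the former, and TGM1 to 0.0055 without both animals numbered 6. With 1 animal left out, TGM1 ranged from -0.12 to 0.10, EVPL from -0.18 to 0.40, PPL from -0.28 to 0.25 and CDSN from -0.74 to 0.99. TGM3, IVL, CNFN, C2H6orf15 and SCEL kept their direction in all alternatives run. Pseudocounts, both scalings and voom changed no call among the 9 genes, but with a pseudocount of 1 FPKM C2H6orf15 was 0.74 and CNFN -0.28, and CDSN was 0.40, 0.29 and 0.21 with pseudocounts of 0.1 and 1 FPKM and voom. Few reads limit the precision of CNFN, CDSN and KRTDAP, which had at most 124, 111 and 5 reads in an animal.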

Other observations

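Treated replicate 1 had the highest value of the 12 animals in 0 of 3 tested transglutaminases besides TGM1 and TGM3, 2 of 7 other envelope precursors, 5 of 12 proteases and inhibitors and 3 of 18 genes of the lipid envelope, against 12.8% of all genes tested. The 4 genes KLK10, KLK12, DMKN and SBSN were chosen after their values were seen and stand for no group. KLK13, another kallikrein, was highest in control replicate 6 (15.1 FPKM, against 14.0 FPKM in treated replicate 1). KLK10 had 45.9 FPKM in treated replicate 1 and 21.2 FPKM at most in the other 11 animals, and KLK12, another kallikrein protease, 61.8 against 41.9 FPKM. DMKN and SBSN, dermokine and suprabasin, follow KRTDAP in the gene order of NDDB_SH_1. In treated replicate 1 they had 11.9 FPKM (next 8.40) and 1.97 FPKM (next 1.5). Treated replicate 5 was the lowest of the 12 animals in these 4 genes, with 1.86 FPKM of KLK10, 2.84 of KLK12, 1.03 of DMKN and no read of SBSN. None of the 4 genes differed between the diets beyond the spread of the animals, with exact permutation p-values of 0.636 (KLK10), 0.926 (KLK12), 0.385 (DMKN) and 0.613 (SBSN).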
